A study of Homo sapiens with 8 samples.

Results

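The mRNAs of the DNA replication machinery were followed as a set of 51 genes, listed by symbol and sorted by the complex their proteins belong to. All 51 had a probe set assigned to them alone, and they are 51 of the 18132 genes measured this way. Each gene was read from its brightest such probe set over the 8 arrays. The RNA came from AGS, a cell line grown from a human stomach adenocarcinoma. Control cells supplied 4 arrays, and cells exposed to podofilox for 72 hours at 3.4 nM supplied the other 4. Podofilox (podophyllotoxin) binds tubulin and stops microtubules from growing. The labels state neither a solvent for the controls nor whether the replicates were separate cultures. The p-values therefore set each difference only against the spread between these arrays within a group, and that spread may be technical.

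Replication starts at origins that the origin recognition complex (ORC) marks. With CDC6 and CDT1 it loads the ring-shaped MCM2-7 helicase, which CDC45 and the GINS complex later turn into the moving motor of the fork. Polymerase alpha with primase starts each strand, polymerases delta and epsilon extend it on the sliding clamp PCNA, and CAF-1 rebuilds nucleosomes behind the fork. Many of these genes are transcribed in a wave before and during S phase that the E2F factors are known to drive.

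The cells with podofilox held less mRNA for most of this machinery, and the counts differed by subcomplex. The helicase and its partners, all 10 polymerase subunits among the members and the licensing factors fell, while most genes of ORC and both of the origin firing kinase, and all of the single-strand binding protein RPA, did not pass the test. In all, 37 of 51 genes fell and 0 rose (limma, Benjamini-Hochberg adjusted p under 0.05 over all genes), against a background of 12.5% of all genes that fell and 8.55% that rose (21.0% either way). The members were bright, with a median control level of 9.03 against 6.98 for all genes. In a separate fit of only the genes above the median level, 28.6% fell, and 36 of the 48 members among them did. That fit called 2593 falls among 9066 genes, against 2260 among all 18132 in the main fit. Its cut-off is therefore less strict, and the 28.6% is not comparable with the 12.5%. By unadjusted means, 49 of 51 were lower with podofilox, against 47.8% of all genes. The median difference of the 51 genes was -0.24 on the log2 scale, a 1.18-fold lower level, and that of all genes was 0.0069. The changes were modest, from 1.12-fold to 1.50-fold lower among the genes that fell. All values here are log2 expression values, and every difference is podofilox minus control. In a bulk RNA sample, fewer cells in S phase and less of each mRNA per cell cannot be told apart.

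Promoter sequences are shown first, because the list was drawn up without them. RefSeq windows of 300 bases, from 250 before to 50 after a start site (GRCh38.p14), were found for 45 of the 51 genes. They were searched on both strands for 4 forms of the E2F motif (TTTGGCGC, TTTCCCGC, TTTGCCGC and TTTCGCGC). At least 1 form was present for 22 of the 45 genes (48.9%), against 5.53% of the 14425 measured genes that have a window and 2 of 18 genes of G2 and mitosis (11.1%). The sites below belong to members with some of the largest falls, 1 site for each (MCM6 and MCM7 have a further one). Each is a stretch of 30 bases, 5′ to 3′ on the gene's strand, with the motif in capitals.
GINS3: cgtccccgggcGCGGGAAAcgagtttcaat
MCM2: tgaaccactTTTCGCGCGAAAcctggttgt
GINS2: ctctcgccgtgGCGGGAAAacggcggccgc
POLE2: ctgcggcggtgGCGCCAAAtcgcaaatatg
TIPIN: ccgcacggaTTTGGCGCCAAAcgctgcggg
MCM7: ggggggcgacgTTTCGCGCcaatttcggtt
CLSPN: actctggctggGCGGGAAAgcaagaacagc
MCM6: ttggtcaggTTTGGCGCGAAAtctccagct

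These stretches lie at chr16:58392455-58392484 (plus strand), chr3:127598404-127598433 (plus strand), chr16:85688967-85688996 (minus strand), chr14:49688201-49688230 (minus strand), chr15:66356731-66356760 (minus strand), chr7:100101388-100101417 (minus strand), chr1:35769965-35769994 (minus strand) and chr2:135876513-135876542 (minus strand), in the same order. In MCM2, MCM6 and TIPIN the motif was met on both strands at once, so the capitals run over 12 bases. The motif sat across the start site in GINS3, POLE2 and CLSPN, from base -5 to base 3 counted from the start. It ended at base -2 in MCM7 and at base -24 in GINS2. There is no base 0 in this count.

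Of the members that did not pass the test, 3 also carried the motif: CDC7, ORC3 and MCM8. A site of each is given for comparison, and CDC7 has another at chr1:91501033-91501062, from base -68 to base -61.
CDC7: tccgacctgcgGCGGGAAAgtcgcgcgcct
ORC3: cgcgagggcgcGCGGGAAAtcccgagtgca
MCM8: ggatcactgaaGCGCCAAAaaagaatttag

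They lie at chr1:91501067-91501096 (plus strand), chr6:87590112-87590141 (plus strand) and chr20:5950667-5950696 (plus strand). The motif letters thus occur on both sides of the test. Among genes that fell 19 of 33 with a window held them, and among those that did not pass 3 of 12 did. The members with the motif had a median difference of -0.31 and those without it -0.19. These counts describe the windows and carry no test.

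The 160 bases before the start are given for 3 members, picked after their values were seen. MCM6 holds the run of 12 motif bases at a pair of places, while TIMELESS, the member with the smallest p, and RPA1, which did not pass, hold none of the 4 forms and so no capitals.
MCM6: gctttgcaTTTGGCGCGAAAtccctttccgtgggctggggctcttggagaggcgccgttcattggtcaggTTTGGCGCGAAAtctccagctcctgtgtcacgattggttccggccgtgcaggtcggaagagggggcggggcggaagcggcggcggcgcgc
TIMELESS: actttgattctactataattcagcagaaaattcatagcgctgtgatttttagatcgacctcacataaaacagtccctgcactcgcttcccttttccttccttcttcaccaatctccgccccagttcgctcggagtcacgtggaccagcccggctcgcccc
RPA1: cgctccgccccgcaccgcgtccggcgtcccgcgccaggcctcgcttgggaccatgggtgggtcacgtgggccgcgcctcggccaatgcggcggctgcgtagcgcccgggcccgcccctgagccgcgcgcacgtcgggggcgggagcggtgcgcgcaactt

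They lie at chr2:135876444-135876603 (minus strand), chr12:56449427-56449586 (minus strand) and chr17:1829845-1830004 (plus strand). Other motifs searched in the same windows were the NF-Y box (CCAAT), the GC box (GGGCGG), the E-box bound by MYC among others (CACGTG) and the cell cycle homology region, CHR (TTTGAA or TTCGAA), which is known from genes expressed late in the cell cycle. The CHR letters occurred in 3 of 45 replication genes (6.67%), in 17.6% of measured genes and in 14 of 18 genes of G2 and mitosis (77.8%). An E-box occurred in 10 of 45 members (22.2%), against 10.9% of measured genes, a GC box in 36 (80%), against 65.7%, and an NF-Y box in 26 (57.8%), against 42.4%. In 4 members, CDC7, CLSPN, LIG1 and PCNA, E2F letters shared bases with a GC box. A match is a string of letters, and no binding was measured.

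**Figure D1:**
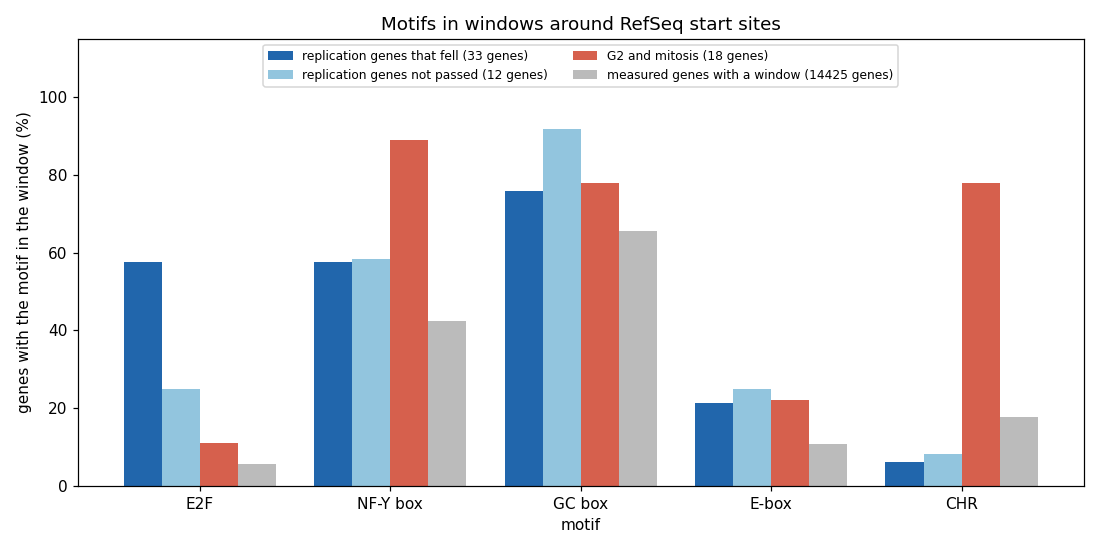
Share of genes (%) whose RefSeq window holds each of 5 motifs, for replication genes that fell, replication genes that did not pass, genes of G2 and mitosis, and all measured genes with a window. The E2F bar of the fallen replication genes stands at 57.6% against 5.53% of measured genes, and the CHR bar of the G2 and mitosis genes at 77.8%.

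The arrays were judged before the members were compared. The median of all genes moved by -0.023 to 0.015 from the control mean on the podofilox arrays. Of 8 epithelial markers 7 were bright, with EPCAM at 12.78 in control cells and 12.95 with podofilox and KRT8 at 13.16 and 13.18, while CDH1 was at 7.41 and 7.52. On that list CLDN4 (0.50), CLDN7 (0.37) and ELF3 (0.27) rose, as did TFF1 (1.08) and ANXA10 (0.49) of 8 gastric markers. The other 6 gastric markers did not pass, and 4 of the 8 had lower means with podofilox. Most gastric markers were dim, with a median control level of 5.60. They ran from GKN1 at 4.05 to GATA6 at 10.87 in control cells. Median control levels were 4.83 for fibroblast, 4.47 for immune and 5.56 for endothelial markers: PTPRC of leukocytes was at 3.62 and 3.49, PECAM1 of endothelium at 5.87 and 5.87, and COL3A1 of fibroblasts at 4.09 and 4.23. Not all were dim: LYZ, on the immune list, was at 13.60 and 13.62, and KDR, on the endothelial list, at 6.93 and 6.95. PDGFRA (1 of 8 fibroblast genes) fell from 8.78 to 8.50 and CDH5 (1 of 6 endothelial genes) from 5.24 to 4.80, and CD68 (1 of 7 immune genes) rose from 7.22 to 7.50. The part of these shifts in the results was not tested. The mean of the 18S ribosomal RNA control probe sets was lower with podofilox (12.01 to 12.42) than in control cells (12.59 to 12.92). Within each group arrays 1 and 2 lay apart from arrays 3 and 4, above them in control cells and below them with podofilox. The Dap spike-in probe sets were higher with podofilox (9.43 to 9.68) than in control cells (9.28 to 9.39). The part of either in the results was not tested. Fitted on the arrays numbered 1 and 2 only, 15 members fell (2.99% of all genes did), and on those numbered 3 and 4 only, 22 fell (7.69%). All 37 genes that fell in the full comparison had lower means in each of these splits.

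The members' median deviation from the control mean was -0.21, -0.25, -0.29 and -0.25 on podofilox arrays 1 to 4, and between -0.032 and 0.038 on the control arrays. The 4 podofilox arrays were therefore alike and stood clear of the controls. On podofilox arrays 1 to 4, 46, 45, 45 and 51 of the 51 genes were below their control mean. The same counts were 34, 15, 36 and 31 on control arrays 1 to 4. For 37 genes the highest podofilox value was under the lowest control value, a pattern seen in 15.6% of all genes, and for 0 genes the order was the opposite (10.6% of all genes). These 37 are not quite the 37 that fell: ORC1 and RPA1 separated without passing the test, and MCM5 and PRIM2 passed with overlapping arrays.

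**Figure D2:**
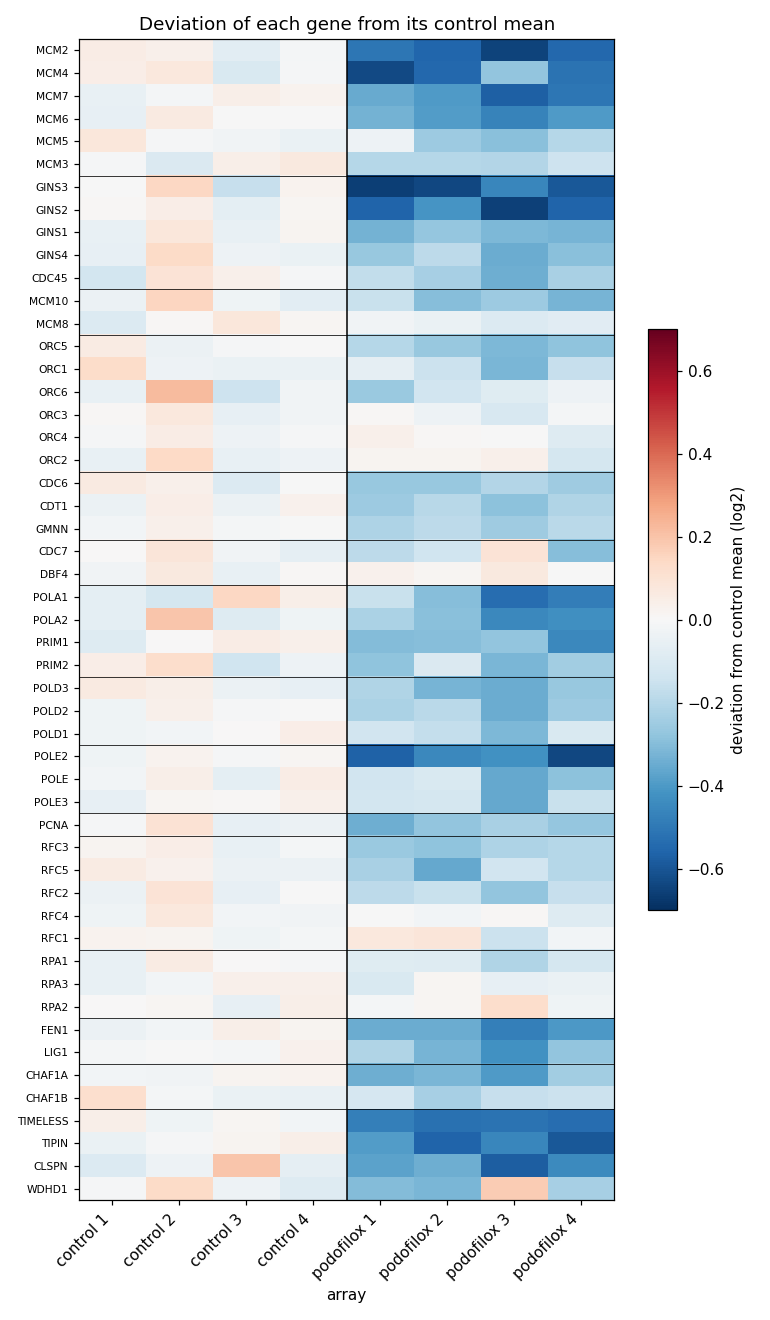
Deviation of each of the 51 genes (rows, grouped by role with lines between groups) from its control mean on each of the 8 arrays (columns), in log2 units, blue for lower. The podofilox columns are blue in most rows, while rows such as ORC4, DBF4 and RFC4 are pale, with mean differences of -0.01, 0.03 and -0.03.

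All 6 subunits of the MCM2-7 helicase, the ring that unwinds DNA, fell. MCM2 was at 9.16, 9.15, 9.04 and 9.09 on control arrays 1 to 4 and at 8.60, 8.55, 8.46 and 8.56 on podofilox arrays 1 to 4. The groups were far apart, with a difference of -0.56 (SE 0.05, adjusted p = 6.84e-05), which placed MCM2 as the 70th lowest of 18132 differences. MCM4 changed by -0.49 (SE 0.08), MCM7 by -0.46 (SE 0.05) and MCM6 by -0.40 (SE 0.05). MCM5 had the weakest call, at 7.87, 7.78, 7.76 and 7.74 in control cells and 7.75, 7.53, 7.49 and 7.58 with podofilox. Podofilox array 1 lay within the control range of MCM5, and its difference of -0.19 (SE 0.06, adjusted p = 0.0463) lost its call when any array but podofilox 1 was dropped, at most to an adjusted p of 0.117. MCM3 changed by -0.19 (SE 0.05, adjusted p = 0.0189) on the probe set used, but by -0.56, -0.50 and -0.62 on its 3 others, close to MCM2 and MCM4. That spread is larger than the standard error of any of its probe sets, and averaging the probe sets gave -0.47. Its call on the probe set used was lost when control 3, control 4 or podofilox 2 was dropped, at most to an adjusted p of 0.0666.

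The GINS complex and CDC45, which join the ring to form the active helicase, also fell in full, 5 of 5. GINS2 stood at 7.32, 7.36, 7.24 and 7.33 in control cells and at 6.75, 6.90, 6.66 and 6.75 with podofilox, a difference of -0.55 (SE 0.06, adjusted p = 0.000167). GINS3 had the largest fall of all 51 genes, -0.59 (SE 0.07, 95% interval -0.74 to -0.43), or 1.50-fold. GINS1 changed by -0.31 (SE 0.04) and GINS4 by -0.27 (SE 0.06). The call of GINS4 rests on a probe set of the _s_at kind, which can bind further transcripts. Its 3 other, dimmer probe sets were at -0.25, -0.13 and 0.09 and did not pass, and with the mean of all 4 the difference was -0.14 (adjusted p = 0.0707). CDC45 was at 7.77, 7.99, 7.93 and 7.89 in control cells and 7.72, 7.66, 7.55 and 7.67 with podofilox. Its groups lay close without overlapping, and the difference was -0.24 (SE 0.06, adjusted p = 0.0143), with -0.39 and -0.50 on its other probe sets.

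The other MCM proteins parted. MCM10, which helps to activate the loaded helicase, was at 7.33, 7.51, 7.33 and 7.29 in control cells and 7.21, 7.07, 7.11 and 7.04 with podofilox. Its difference was -0.26 (SE 0.06, adjusted p = 0.0127), and -0.45 and -0.35 on its other probe sets. MCM8, a helicase of recombination repair, was at 8.85, 8.95, 9.03 and 8.96 in control cells and 8.92, 8.90, 8.85 and 8.87 with podofilox. These ranges overlapped, with a difference of -0.06 (95% interval -0.17 to 0.04), and its 4 other probe sets ran from -0.084 to -0.005 without passing.

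Of the 6 ORC genes, which mark the origins where the helicase is loaded, 1 fell. The difference between this count and that of the helicase was not tested. ORC5 was at 8.62, 8.52, 8.55 and 8.56 in control cells and 8.36, 8.30, 8.24 and 8.28 with podofilox, a difference of -0.27 (SE 0.04, adjusted p = 0.00213), with -0.32 and -0.28 on its other probe sets, both past the test. ORC2 was at 8.98, 9.17, 8.98 and 9.00 in control cells and at 9.05, 9.05, 9.07 and 8.91 with podofilox. The groups overlapped and the difference was -0.01 (95% interval -0.14 to 0.12). For ORC4 it was -0.01 (95% interval -0.11 to 0.09), and for ORC6 -0.13 (95% interval -0.30 to 0.05). ORC1, the subunit whose level is known to vary over the cell cycle, was lower on every podofilox array, yet its difference of -0.17 did not pass (adjusted p = 0.0859). ORC3 differed by -0.04 on the probe set used, an _x_at kind, while its 6 others were all lower, from -0.52 to -0.08, and 2 of them passed. With the mean of its probe sets ORC3 passed as well (-0.19, adjusted p = 0.00478).

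All 3 licensing factors fell by similar amounts. CDT1, which brings the helicase to ORC, was at 8.10, 8.19, 8.10 and 8.17 in control cells and 7.88, 7.94, 7.85 and 7.93 with podofilox, a difference of -0.24 (SE 0.04, adjusted p = 0.00391). CDC6, its partner in loading, was at 9.84, 9.81, 9.68 and 9.78 in control cells and 9.51, 9.51, 9.57 and 9.53 with podofilox, a difference of -0.25 (SE 0.05), although its other probe set, was at -0.08 and did not pass. GMNN, or geminin, which restrains CDT1 once S phase is under way, changed by -0.21 (SE 0.04). Loading factor and inhibitor thus both moved down with no overlap between groups.

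The kinase that fires loaded origins did not pass in either subunit. CDC7, the catalytic part, was at 7.61, 7.70, 7.59 and 7.55 in control cells and at 7.43, 7.47, 7.71 and 7.32 with podofilox. Podofilox array 3 stood above all controls and the others below them, and the difference of -0.13 (95% interval -0.30 to 0.04) did not pass. Without that array CDC7 passed (adjusted p = 0.0326), but with the mean of its 3 probe sets the difference was -0.0057 (adjusted p = 0.952). DBF4, which activates it, was at 9.51, 9.60, 9.49 and 9.55 in control cells and 9.57, 9.55, 9.61 and 9.53 with podofilox. Its difference was 0.03 (95% interval -0.07 to 0.12), and 0 of its 7 probe sets passed.

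**Figure D3:**
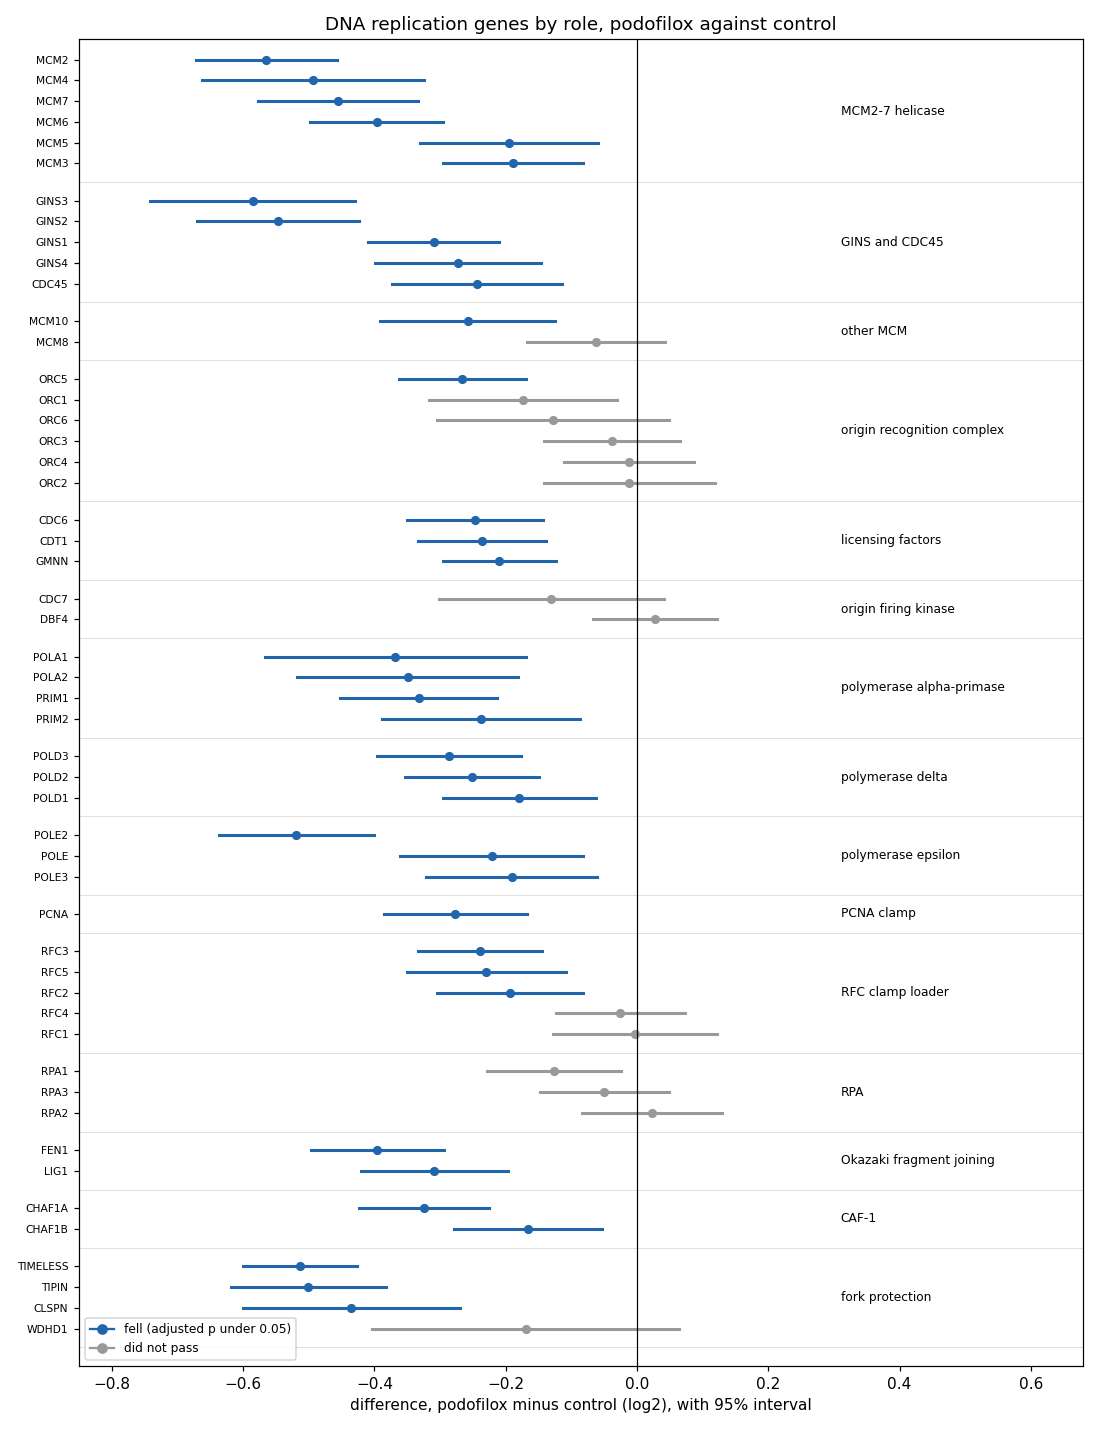
Difference between podofilox and control (log2, point) with its 95% interval (line) for each of the 51 genes, ordered within 15 role groups, blue where the gene fell and grey where it did not pass. Intervals of the MCM2-7, GINS and polymerase genes lie left of 0, from -0.59 for GINS3 at the point, while most ORC genes and all RPA genes are grey.

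Of the replicative polymerases, all 10 subunits among the 51 genes fell. The small subunits POLD4 and POLE4, kept on a further list, did not: POLD4 rose by 0.34 and POLE4 was at 0.08 without passing. In polymerase alpha-primase, which lays down primers, PRIM1 was at 8.61, 8.70, 8.75 and 8.74 in control cells and 8.40, 8.40, 8.43 and 8.25 with podofilox, a difference of -0.33 (SE 0.05, adjusted p = 0.0019). POLA1, the catalytic subunit, changed by -0.37 (SE 0.09), and the size was uneven, at -0.13 between the arrays numbered 1 and 2 against -0.60 between those numbered 3 and 4. POLA2 changed by -0.35 (SE 0.08). PRIM2 was at 7.67, 7.75, 7.49 and 7.59 in control cells and 7.35, 7.52, 7.30 and 7.38 with podofilox. Podofilox array 2 lay above the lowest control value. The call (-0.24, SE 0.07, adjusted p = 0.0318) was lost when any array but control 3 or podofilox 2 was dropped, at most to an adjusted p of 0.0792.

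In polymerase delta, which mainly copies the lagging strand, POLD3 was at 7.68, 7.66, 7.58 and 7.56 in control cells and 7.41, 7.29, 7.27 and 7.36 with podofilox, a difference of -0.29 (SE 0.05, adjusted p = 0.00277). POLD2 changed by -0.25 (SE 0.05), and by -0.22 on its other probe set. POLD1, the catalytic subunit, was at 9.22, 9.22, 9.24 and 9.29 in control cells and 9.11, 9.08, 8.93 and 9.14 with podofilox. Its groups did not overlap, but the call (-0.18, SE 0.05, adjusted p = 0.0351) was lost when any control or podofilox 2 was dropped, at most to an adjusted p of 0.103.

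Polymerase epsilon, which copies the leading strand, fell in all 3 listed subunits. POLE2, an accessory subunit, was at 8.58, 8.63, 8.60 and 8.62 in control cells and 8.04, 8.16, 8.19 and 7.98 with podofilox, a difference of -0.52 (SE 0.05, adjusted p = 0.000175). The catalytic subunit POLE changed by -0.22 (SE 0.06), with a 95% interval (-0.36 to -0.08) that does not meet that of POLE2 (-0.64 to -0.40), although the difference between the genes was not tested. POLE3, a histone-fold subunit that also serves in chromatin remodelling, was at 9.46, 9.53, 9.53 and 9.55 in control cells and 9.39, 9.40, 9.16 and 9.36 with podofilox. Its call (-0.19, adjusted p = 0.043) was lost when any array but podofilox 1 was dropped, at most to an adjusted p of 0.112. That of POLE was lost when control 1, 2 or 4 or podofilox 3 or 4 was dropped, at most to 0.0885.

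PCNA, the clamp that holds polymerases on DNA, was at 12.28, 12.39, 12.23 and 12.24 in control cells and 11.94, 12.01, 12.06 and 12.01 with podofilox, a difference of -0.28 (SE 0.05, adjusted p = 0.00312). Its dimmer probe set changed by -0.37. Of the 5 subunits of RFC, which opens the clamp and loads it, 3 fell. RFC3 was at 9.67, 9.70, 9.60 and 9.64 in control cells and 9.39, 9.37, 9.44 and 9.45 with podofilox, a difference of -0.24 (SE 0.04, adjusted p = 0.00311). Its 2 dimmest probe sets were at -0.02 and 0.06, and with the mean of all 4 it missed the threshold (adjusted p = 0.0532). RFC5 and RFC2 changed by -0.23 and -0.19. The call of RFC2 ended without control array 4 (adjusted p = 0.0551). RFC1, the large subunit, was at 9.46, 9.46, 9.41 and 9.42 in control cells and 9.51, 9.52, 9.29 and 9.42 with podofilox. Podofilox arrays lay on both sides of the controls, with a difference of -0.0029 (95% interval -0.13 to 0.12), and its other probe sets were at 0.01 and -0.02. RFC4 differed by -0.03 (95% interval -0.12 to 0.07), but with the mean of its 3 probe sets, the other 2 of them dim, it passed as a fall (-0.19, adjusted p = 0.0429).

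**Figure D4:**
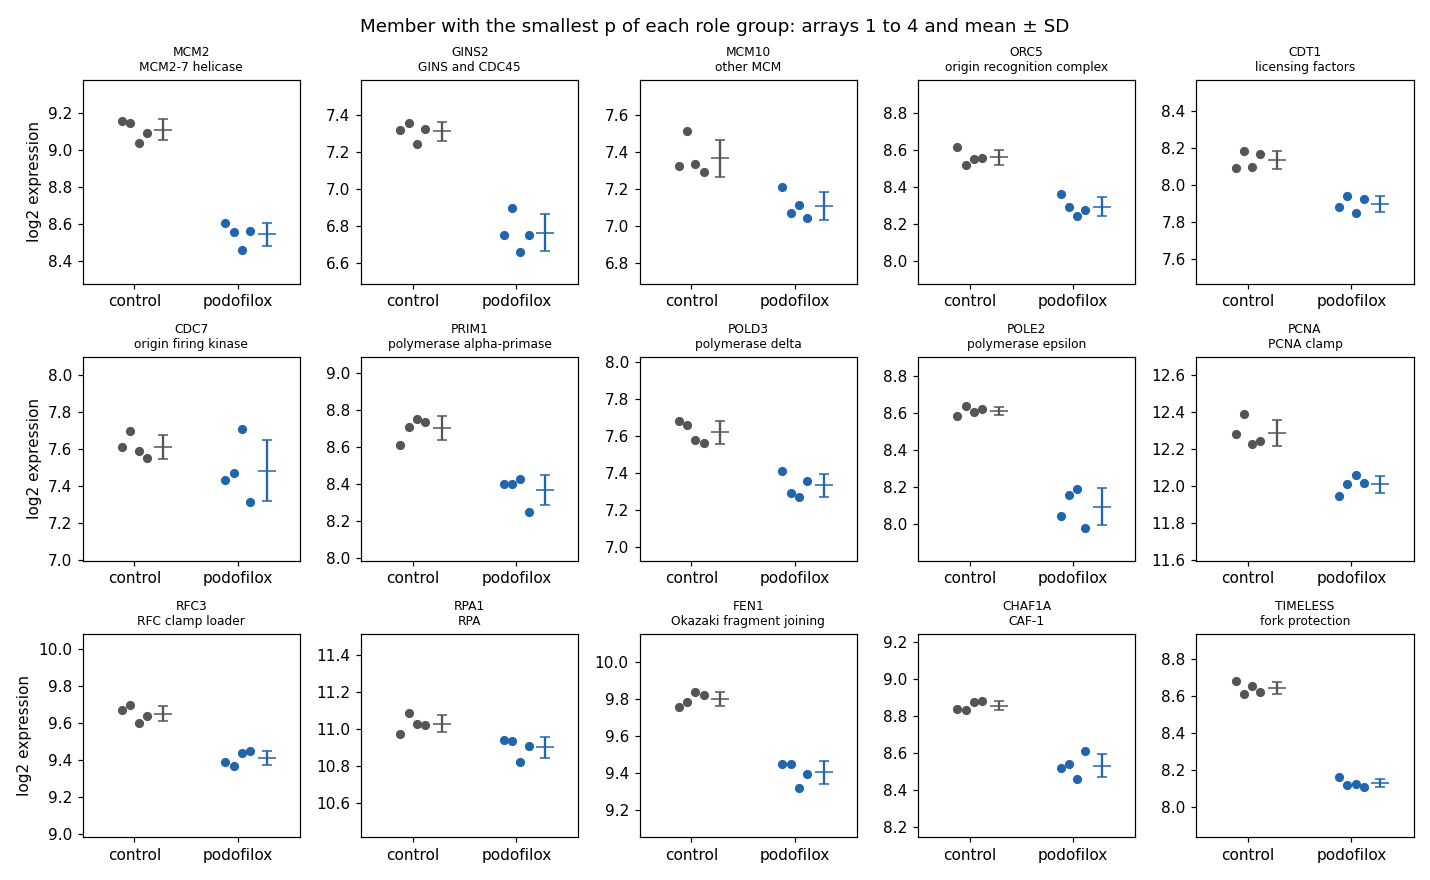
Log2 expression on control (grey) and podofilox (blue) arrays 1 to 4, left to right, with mean ± SD beside them, for the member with the smallest p in each of 15 role groups. Each panel spans the same 1.1 log2 units. The groups overlap in the panel of CDC7, and in the others the podofilox points lie below the control points.

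Of the 3 genes of RPA, the trimer that coats single-stranded DNA, 0 passed the test. RPA1 was at 10.97, 11.09, 11.03 and 11.02 in control cells and 10.94, 10.94, 10.82 and 10.91 with podofilox. All podofilox values were below all control values by a narrow margin, and the difference of -0.13 (95% interval -0.23 to -0.03) had an adjusted p of 0.0777. It passed as a fall among genes above the median level and with an intensity trend. Its dimmer probe set went the other way (6.24 in control cells and 6.40 with podofilox) and passed as a rise, so the direction for RPA1 depends on the probe set. RPA2 was at 10.00, 10.01, 9.94 and 10.04 in control cells and 9.99, 10.01, 10.12 and 9.97 with podofilox. The groups overlapped, at a difference of 0.02 (95% interval -0.08 to 0.13), although another of its probe sets fell (-0.15). RPA3 differed by -0.05 (95% interval -0.15 to 0.05).

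The enzymes that finish lagging-strand pieces both fell. FEN1, which trims the flap, was at 9.76, 9.78, 9.84 and 9.82 in control cells and 9.45, 9.45, 9.32 and 9.40 with podofilox, a difference of -0.40 (SE 0.05, adjusted p = 0.000323). LIG1, the ligase that seals the nick, was at 9.32, 9.33, 9.32 and 9.36 in control cells and 9.12, 9.01, 8.91 and 9.06 with podofilox, a difference of -0.31 (SE 0.05). All 3 probe sets of FEN1 and all 6 of LIG1 fell, from -0.40 to -0.19.

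CAF-1, the chaperone that deposits histones on new DNA, fell in both of its listed subunits. CHAF1A was at 8.84, 8.83, 8.88 and 8.88 in control cells and 8.52, 8.54, 8.46 and 8.61 with podofilox, a difference of -0.33 (SE 0.04, adjusted p = 0.000746). CHAF1B was at 8.23, 8.10, 8.07 and 8.06 in control cells and 8.00, 7.89, 7.95 and 7.96 with podofilox. The groups came close, and its call (-0.17, adjusted p = 0.0419) was lost when any array but podofilox 1 was dropped, at most to an adjusted p of 0.113. It was also lost with the mean of its probe sets (-0.04), of which the other is dim.

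Of the 4 genes that guard the moving fork, 3 fell. TIMELESS had the smallest p of all 51 genes, at 8.68, 8.61, 8.65 and 8.62 in control cells and 8.16, 8.12, 8.13 and 8.11 with podofilox, a difference of -0.51 (SE 0.04, adjusted p = 3.51e-05). TIPIN, its binding partner, changed by -0.50 (SE 0.05). The other probe set of TIMELESS, dim at 4.40 in control cells, was at -0.14 without passing, and the other probe sets of TIPIN were at -0.42, which fell, and -0.39, which did not pass. With the mean of probe sets TIMELESS was at -0.33 and TIPIN at -0.44. CLSPN, the checkpoint adaptor claspin, was dim (6.34 in control cells) and changed by -0.44 (SE 0.07). WDHD1, which ties the helicase to polymerase alpha, was at 7.38, 7.52, 7.35 and 7.30 in control cells and 7.08, 7.06, 7.57 and 7.15 with podofilox. Podofilox array 3 exceeded every control while the other 3 lay below them, and the difference of -0.17 (95% interval -0.40 to 0.06) did not pass. It was -0.38 on the arrays numbered 1 and 2 and 0.04 on those numbered 3 and 4, and WDHD1 passed once podofilox array 3 was dropped (adjusted p = 0.0119).

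Most members could be read more than once, since 38 of them had over 1 probe set. Of their 89 further probe sets, 77 were lower, 47 fell and 1 rose, in a fit over all 44988 single-gene probe sets of which 10.2% fell. The shares were 52.8% of these further probe sets and 72.5% of the genes on their brightest ones. Probe sets of a gene come from the same RNA and are not replicates. Among genes with over 1 probe set, all of them fell for MCM2, MCM3, MCM4, MCM6, MCM7, CDC45, MCM10, ORC5, CDT1, POLA2, PRIM2, POLD2, PCNA, FEN1, LIG1 and CLSPN. In this wider adjustment the probe sets used for MCM5, POLE3 and CHAF1B did not pass.

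**Figure D5:**
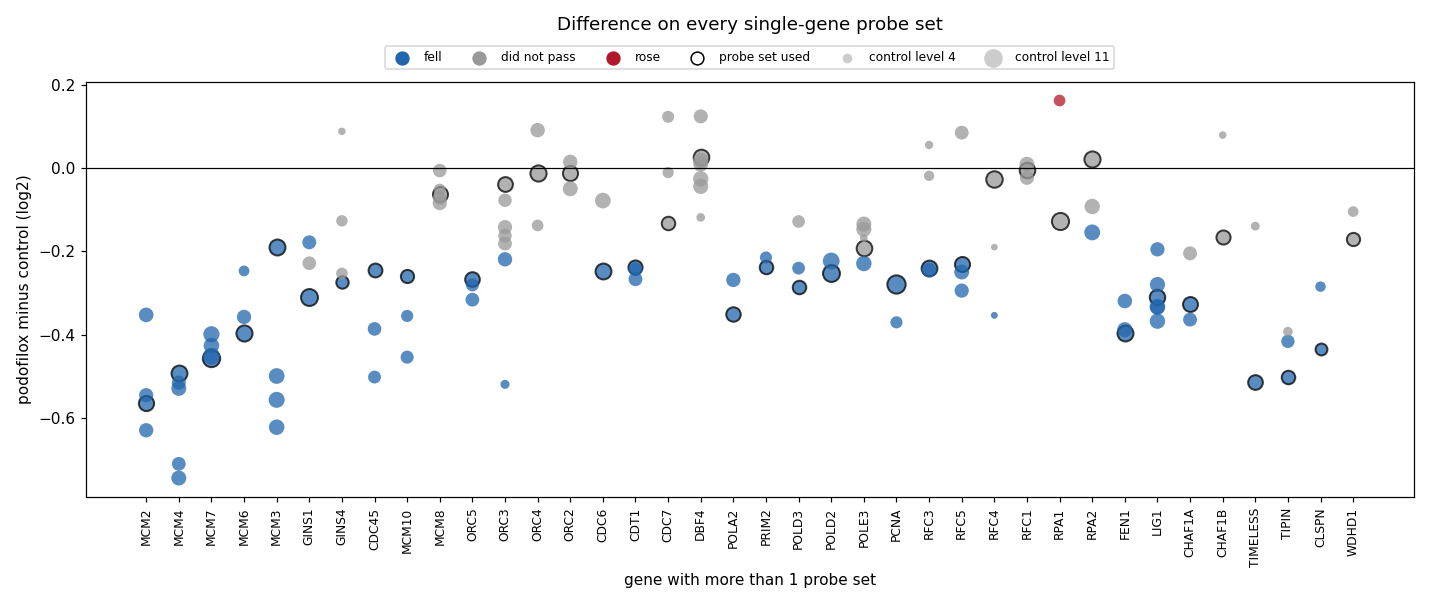
Difference (log2, podofilox minus control) on each single-gene probe set of the 38 genes with more than 1, with outlined points for the probe set used, point area by control level, blue for fell, grey for not passed and red for rose. The MCM3 points reach -0.62 below the outlined one at -0.19, and the only red point belongs to RPA1.

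Of 51 measured genes on 5 further lists of S phase, 19 fell (37.3%, against 12.5% of all genes) and 5 rose, a share close to the 8.55% of all genes. These genes were bright too, with a median control level of 8.86 against 6.98 for all genes. With only genes above the median level fitted, 28.6% of genes fell. The 37.3% comes from the fit of all genes and is not comparable with that share. In the separate fit RRM2, DUT, DNA2, ATAD5, RBBP4 and E2F6 of these lists also passed as falls, and DCK as a rise. Of 9 measured genes of nucleotide supply 4 fell and 1 rose, with a median difference of -0.13. Thymidine kinase TK1 changed by -0.22 (SE 0.05), DTYMK by -0.20 (SE 0.05) and thymidylate synthase TYMS by -0.20 (SE 0.05), while RRM2B, the ribonucleotide reductase subunit that p53 is known to induce, rose by 0.37 (SE 0.05, adjusted p = 0.0007). TYMS lost its call with each array centred on its median (adjusted p = 0.0516) and with a block for replicate number (adjusted p = 0.0538). Of 15 further initiation and fork factors 4 fell and 1 rose. POLD4, a small accessory subunit of polymerase delta, had the smallest p of these (0.34, SE 0.04, adjusted p = 0.00059). MCMBP, which binds MCM subunits, changed by -0.26 (SE 0.05), TONSL by -0.27 (SE 0.05) and MTBP, a factor of origin firing, by -0.31 (SE 0.06).

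Of 6 genes that handle histones at forks 3 fell and 0 rose. The histone chaperone NASP changed by -0.39 (SE 0.04, adjusted p = 0.000179), SLBP, which binds histone mRNA, by -0.18 (SE 0.05) and ASF1B by -0.15 (SE 0.05), while RBBP4, the shared subunit of CAF-1, was at -0.14 and did not pass. With each array centred on its median, SLBP and ASF1B lost their calls (adjusted p = 0.0673 and 0.0925). They also lost them with a block for replicate number (adjusted p = 0.0590 and 0.0769). Among 13 E2F and RB genes 4 fell and 1 rose. E2F3 changed by -0.27 (SE 0.04), the E2F partner TFDP1 by -0.23 (SE 0.05) and E2F4 by -0.17 (SE 0.05), and E2F7 rose by 0.32 (SE 0.06, adjusted p = 0.00374). The call of E2F4 was lost with median centring (adjusted p = 0.0519) and with the replicate block (adjusted p = 0.0845). Of 8 S phase cyclins and kinases 4 fell and 2 rose. Cyclin E2, CCNE2, changed by -0.54 (SE 0.07), CDC25A by -0.35 (SE 0.06), DTL, which directs CDT1 to degradation, by -0.34 (SE 0.06) and cyclin E1, CCNE1, by -0.24 (SE 0.05). CCNE1 did not pass once probe sets of the _x_at and _s_at kinds were left aside (-0.11, adjusted p = 0.258). CDK2 and SKP2, named after their values were seen, rose by 0.22 and 0.21, although SKP2 stood at -0.11 with the mean of its probe sets.

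Genes of G2 and mitosis were set beside them as a list from a later stage of the cell cycle. Of 20 measured, 4 fell and 1 rose, with a median difference of -0.04. The share that fell was 20%, against 12.5% of all genes and 72.5% of the replication genes. CENPF changed by -0.35 (SE 0.04), HMMR by -0.24 (SE 0.04) and CENPE by -0.22 (SE 0.05), while NEK2 rose by 0.16 (SE 0.05). NEK2 lost that call with a block for replicate number (adjusted p = 0.0961). It also lost it without control array 1, 3 or 4 (adjusted p = 0.0608, 0.0767 and 0.0917). The 20% is not comparable with the 28.6% that fell when only genes above the median level were fitted. In that separate fit CCNB1 and KIF11 also passed as falls (adjusted p = 0.0456 and 0.0266) and AURKA as a rise (adjusted p = 0.0199). With the mean of probe sets MKI67 passed as a fall (-0.34, adjusted p = 0.000116), and CDK1 (0.19) and AURKA (0.12) as rises. For the G2 and mitosis genes the median deviation was -0.050, -0.062 and -0.046 on podofilox arrays 1, 3 and 4. These values were just under the control range of -0.045 to 0.059, and podofilox array 2, at 0.0032, was inside it. For the MCM2-7 genes the same measure ran from -0.45 to -0.34, outside the control range of -0.013 to 0.018.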

How the data were processed

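Messenger RNA was measured on 8 Affymetrix arrays with 49395 probe sets. The authors' deposited table holds log2 values made with RMA (background correction, quantile normalization and probe set summary), per the submitters' processing notes. For RMA, software, version and options were not given in the sources used here. Platform annotation assigned 44988 probe sets to 1 gene, 1832 to several and left 2473 unnamed, besides 102 controls. Only the first kind was used. The precision is limited by having 4 arrays in each group.

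Each gene was read from its brightest single-gene probe set. A linear model with a term for treatment was fitted by limma 3.58.1 (lmFit, eBayes; R 4.3.3) to all 18132 genes without a filter. Tests were two-sided and adjusted by Benjamini-Hochberg. Tested on simulated data of 18132 genes with 200 of them changed, this called 82% of changes of 0.5 and 41% of changes of 0.25 (log2). Far more genes were called in the data (3810), which makes the adjusted cut-off less strict there. The simulated shares therefore do not give the detection rate in these data. Standard errors are limma's moderated ones, and SD is over arrays. Every member may be named. Values on all arrays are given for the members with the smallest and largest p of each role group, and up to 4 genes with the smallest p are named per further list. The members and lists were chosen with earlier results of these data known. Alternatives covered how probe sets represent a gene (their mean, or none of the _x_at and _s_at kinds), leaving out genes below the median level, renewed quantile normalization, median centring, limma's trend and robust options, weights for arrays, a block for replicate number, subsets of arrays, and each array dropped in turn. Promoter windows come from RefSeq (GRCh38.p14), and motifs were counted in Python 3.11.15. A gene counts as holding a motif if any of its windows does.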

Additional observations from a re-analysis of the deposited data

Results flagged for a closer look

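Of 102 sets of 4 arrays, 8 held a value far from the other 3, 4 among control and 4 among podofilox sets. Chance flags about 1 set in 20. Control array 2 was high for GINS4 (6.87, next 6.70), ORC2 (9.17, next 9.00) and RFC4 (10.42, next 10.33), and control array 1 for ORC1 (7.45, next 7.28). Podofilox array 4 was low for ORC2 (8.91, next 9.05) and PRIM1 (8.25, next 8.40) and high for MCM3 (9.68, next 9.62, in a set that spans 0.06). Podofilox array 3 was low for POLE3 (9.16, next 9.36).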

How the results depend on the processing

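The 37 replication genes that fell numbered 32 to 38 under 8 other settings on all arrays, 34 and 36 of them among 48 measured genes, while 8.96% (replicate block) to 28.6% (only genes above the median level) of the genes fitted fell. In arrays 1 and 2 alone 15 fell and in arrays 3 and 4 alone 22, when 1010 and 2300 genes were called overall in place of 3810. With each array dropped, 29 (without control replicate 4) to 36 members fell and 2706 to 3590 genes were called. Of the 37, 29 kept the call without any 1 array and 10 in every setting run. The count that rose was 1 without _x_at and _s_at probe sets, which was RPA1 (0.16, adjusted p = 0.0388), and GINS4 turned to 0.09 there (adjusted p = 0.587). The median difference was -0.21 with renewed quantile normalization, under which MCM5, PRIM2, POLD1, POLE3 and CHAF1B lost their calls. With the mean of probe sets RBL1 turned to -0.14 (adjusted p = 0.0243) and SKP2 to -0.11 (adjusted p = 0.0518). Same-numbered arrays of the groups did not deviate alike over all genes (correlations from -0.24 to 0.089). These correlations cannot settle whether the numbers mark a batch, on which the labels are silent. With the replicate block 32 members fell and 2741 genes were called, and POLA1, POLD1, POLE3, RFC5 and CHAF1B lost their calls. The cause of these changes was not tested.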

Other observations

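Among the 51 genes, control level and difference had a Spearman correlation of 0.26, given as a description of genes that share arrays and probes. The SD between arrays was larger with podofilox for 29 of 51 genes, with medians of 0.055 in control cells and 0.069 with podofilox.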
